A study of Mus musculus with 6 samples.

Results

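Acyl-CoA synthetases attach coenzyme A to fatty acids and acyl-CoA thioesterases take it off again. The results below concern 10 such genes, the synthetases Acsl1, Acsl3, Acsl4, Acsl5 and Acsm3 and the thioesterases Acot1, Acot2, Acot7, Acot11 and Acot13, in inguinal white fat (iWAT), compared between Zip13-KO and wild-type (WT) mice. The genes were taken from a list, and every array probe assigned to a RefSeq transcript of one of them was used. This gave 12 probes of the 55681 on the array and 10 genes of the 15306 that were named and tested. Acsl1 and Acsm3 had a pair of probes each.

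The tissue was profiled on 6 single-colour Agilent mouse arrays, 1 for each of 3 WT and 3 Zip13-KO samples. Zip13 (Slc39a13) encodes a zinc transporter. In the Zip13-KO mice a Neo cassette took the place of exons 6 to 8 in all tissues, the line was derived from R1 embryonic stem cells, and it was crossed to C57BL/6J for 7 generations or more. The WT mice were littermates on that background, mice of both genotypes were 10 weeks old, and all were given powdered food because the mutants have few teeth. The sex of the animals, any pooling, and whether these mice received the standard or the fat-rich food are not given in the sources used here. The p values therefore measure only the spread between samples, which the labels number as replicates without naming separate animals. Slc39a13 read 11.29, 10.87 and 10.72 on the WT arrays and 6.76, 6.66 and 6.47 on the Zip13-KO arrays (quantile-normalized log2 intensity), so every library matched its genotype label. The samples held fat, since all 10 adipocyte markers examined, Adipoq and Fabp4 among them, were well above background on every array. These markers do not tell one fat depot from another.

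A fatty acid that enters a cell is inert until an acyl-CoA synthetase activates it, and the acyl-CoA can then be burned in mitochondria and peroxisomes or esterified into triglyceride and phospholipid. Thioesterases hydrolyse acyl-CoA back to the free fatty acid, each in its own compartment, and so set how much acyl-CoA is at hand. In thermogenic adipocytes, where fatty acids are both the fuel and the activator of the uncoupling protein UCP1, Acsl1 is known as the main long-chain synthetase and Acot11 as a thioesterase that cold induces.

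Genes of both families were higher in the Zip13-KO iWAT, and none was called lower. Of the 10 genes, 5 were higher past the threshold (over 1.5-fold, with a limma p adjusted over all genes of less than 0.05): Acsl1, Acsl3, Acsm3, Acot2 and Acot11. Among all genes tested 10.3% were called higher and 8.38% lower. The other 5 genes, Acsl4, Acsl5, Acot1, Acot7 and Acot13, were not called. At an unadjusted limma p under 0.05 and any size of change, 7 genes were higher and 0 lower, against 25.3% higher and 21.8% lower among all genes tested. On 7 of the 10 genes all 3 Zip13-KO arrays were above all 3 WT arrays, which was so for 29.2% of the genes tested. On 1, Acsl4, all 3 were below, against 25.9% of the genes tested. The median log2 fold change of the 10 genes was 0.92, and that of all genes tested was -0.00051. Every one of the 12 probes was well above background on all 6 arrays, so no gene entered the comparison through 1 genotype alone. Because the RNA is of whole tissue, a changed number of cells of a type and a changed amount of RNA per cell cannot be told apart.

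**Figure D1:**
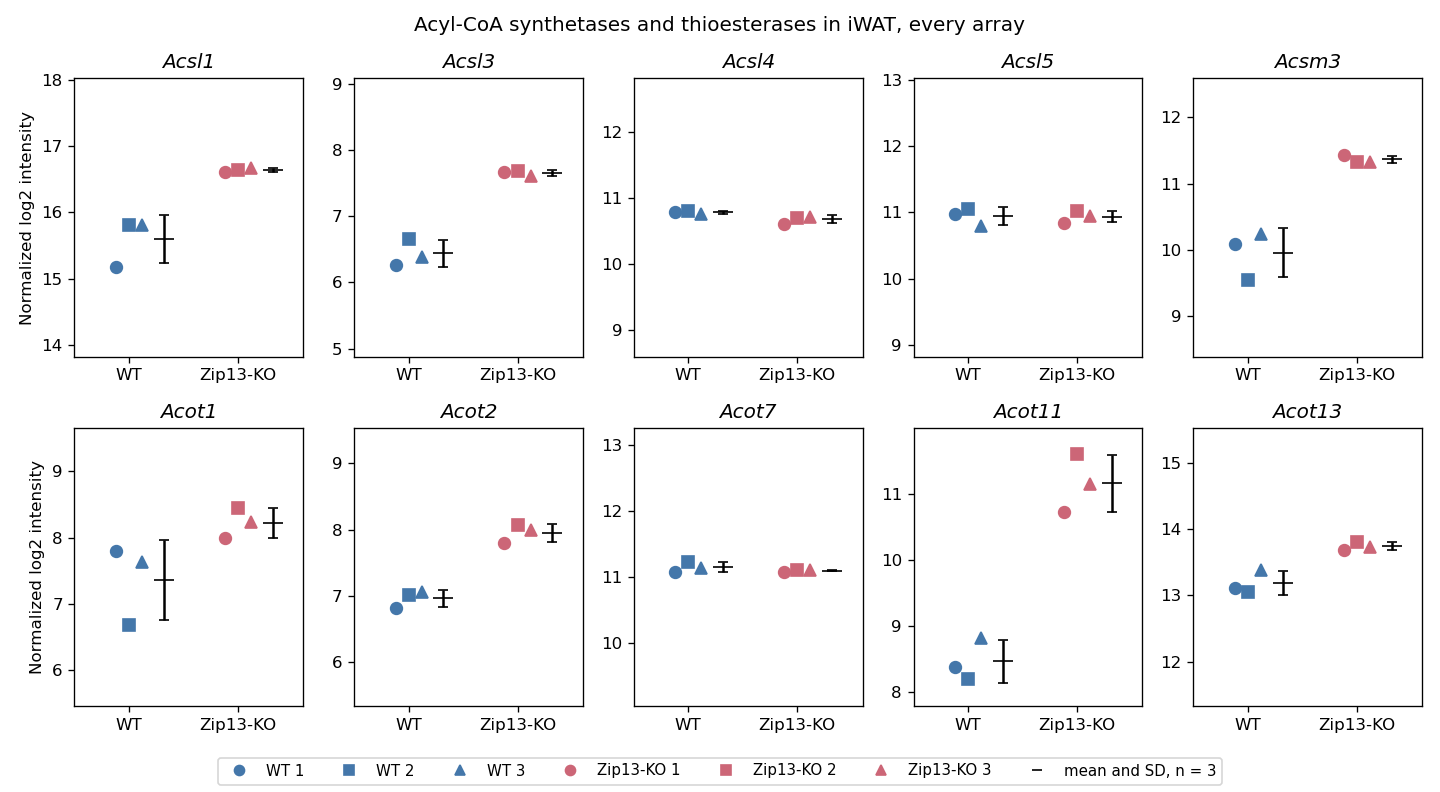
Quantile-normalized log2 intensity of the 10 genes (y axis, the same span of log2 units in every panel) on the 3 WT and 3 Zip13-KO arrays, with the mean and SD of each genotype in black (n = 3). The Zip13-KO arrays sit apart above the WT arrays for Acsl1, Acsl3, Acsm3, Acot2 and Acot11, and the genotypes lie at the same height for Acsl5 and Acot7.

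Acsl1, the long-chain synthetase that prevails in adipocytes, read 15.18, 15.82 and 15.81 on the WT arrays and 16.60, 16.64 and 16.67 on the Zip13-KO arrays with its brighter probe. The genotypes did not overlap, and WT replicate 1 stood below the other WT arrays while the Zip13-KO arrays lay close together. Acsl1 rose by 2.05-fold, a log2 fold change of 1.04 with a standard error (SE) of 0.18 and an adjusted p = 0.0111. The dimmer probe read 12.64, 13.22 and 13.31 on the WT arrays and 14.25, 14.36 and 14.27 on the Zip13-KO arrays. Again WT replicate 1 was the lowest array. The change with this probe was 1.24 (SE 0.19, adjusted p = 0.0104 in the limma fit of every probe by itself, in which 8.34% of the 33038 probes were called higher and 7.13% lower). Both probes of Acsl1 were thus called, and neither was saturated on any array.

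Acsl1 has more than one start in the RefSeq annotation. The bases in front of a pair of these starts are printed because both probes of Acsl1 rose, as did both of Acsm3, and because the stretches differ in make-up. They come from RefSeq on GRCm38.p6 and run 5′ to 3′ in the direction of the gene up to the last base before the start. Capitals mark matches, on either strand, to a set of motifs known from many promoters. The GC box was searched as GGGCGG and the CCAAT box by the letters of its name. The letters of the E-box were CACGTG, those of the C/EBP core TTGCNNAA and those of the sterol regulatory element core TCACNCCAC. The PPAR direct repeat was searched as AGGTCA and a second copy of it with any 1 base between them.
Acsl1, start lying upstream (chr8:46470787-46471036, plus strand): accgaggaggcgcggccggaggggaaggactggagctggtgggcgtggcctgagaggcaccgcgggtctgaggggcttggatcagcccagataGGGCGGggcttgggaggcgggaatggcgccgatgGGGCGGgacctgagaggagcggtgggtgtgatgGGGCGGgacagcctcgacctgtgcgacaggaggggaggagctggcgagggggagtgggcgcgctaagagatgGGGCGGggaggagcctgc
Acsl1, start lying downstream (chr8:46490716-46490965, plus strand): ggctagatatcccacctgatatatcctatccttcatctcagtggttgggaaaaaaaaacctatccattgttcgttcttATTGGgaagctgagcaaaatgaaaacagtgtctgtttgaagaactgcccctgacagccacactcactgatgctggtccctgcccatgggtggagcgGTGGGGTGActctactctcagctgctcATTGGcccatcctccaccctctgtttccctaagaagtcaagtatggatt
The stretch before the upstream start holds 4 GC boxes and no other match. The stretch before the downstream start holds 2 CCAAT boxes and the sterol regulatory element core, 76 bases before the start. Of all 32851 promoters searched over the same length, 32.7% hold a GC box, 33.8% a CCAAT box and 1.05% the sterol regulatory element core. A match describes the letters only, and the arrays do not show which start was used.

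Acsl3, a synthetase of the endoplasmic reticulum and of lipid droplets, read 6.27, 6.66 and 6.38 on the WT arrays and 7.67, 7.69 and 7.61 on the Zip13-KO arrays. All 3 Zip13-KO arrays were higher, and they differed among themselves by less than the WT arrays did. The rise of 2.33-fold (log2 fold change 1.22, SE 0.12) had an adjusted p = 0.00444. Its processed signal, 81.7 to 111 units on the WT arrays, was low, and the size of its change moved with the background correction. With normexp correction the log2 fold change was 0.77, still past the threshold.

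Acsl4, a synthetase that prefers arachidonic acid, read 10.79, 10.79 and 10.75 on the WT arrays and 10.61, 10.70 and 10.72 on the Zip13-KO arrays. Every Zip13-KO array was below every WT array, but by little. Its log2 fold change was -0.10 (95% interval -0.27 to 0.07, adjusted p = 0.291), so a change of 1.5-fold lay outside the interval. Acsl5, which is found on mitochondria and the endoplasmic reticulum, read 10.98, 11.06 and 10.79 on the WT arrays and 10.84, 11.02 and 10.95 on the Zip13-KO arrays. The genotypes overlapped throughout. Acsl5 had a log2 fold change of -0.0033 (95% interval -0.25 to 0.24, adjusted p = 0.981).

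Acsm3, which activates medium-chain fatty acids in the mitochondrial matrix, had the largest estimated change of the 5 synthetases. Its brighter probe read 10.09, 9.54 and 10.25 on the WT arrays and 11.44, 11.33 and 11.33 on the Zip13-KO arrays. The genotypes were well apart, with WT replicate 2 the lowest. Acsm3 rose by 2.65-fold (log2 fold change 1.41, SE 0.19, adjusted p = 0.00652). The dimmer probe read 9.89, 9.16 and 9.85 on the WT arrays and 10.97, 10.97 and 10.95 on the Zip13-KO arrays. It showed the same low WT array and a rise of 1.33 on the log2 scale (SE 0.20, adjusted p = 0.0106 in the fit of every probe).

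The synthetases were also compared with each other inside each array, by subtracting the log2 intensity of one gene from that of another and comparing this difference between genotypes. The change of Acsl4 was 1.14 log2 units short of that of Acsl1 (difference -1.14), and that of Acsl5 was 1.04 short of it (difference -1.04). In both pairs the 3 Zip13-KO arrays were all below the 3 WT arrays, with p = 0.1 by a two-sided exact permutation test, the smallest value that 3 arrays against 3 can give, and p = 0.167 after adjustment over the 5 pairs compared. The changes of Acsl3 and Acsl1 differed by 0.18 (exact permutation p = 0.4, adjusted p = 0.5), with the genotypes overlapping. This last difference turned to -0.29 with normexp correction.

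Acot11, a thioesterase for long-chain acyl-CoA that is also called BFIT or Them1, changed most of the 10 genes. It read 8.38, 8.20 and 8.82 on the WT arrays and 10.72, 11.59 and 11.14 on the Zip13-KO arrays. Even the lowest of the latter was above the highest WT array by more than the spread inside either genotype. The rise was 6.44-fold (log2 fold change 2.69, SE 0.26, adjusted p = 0.00444). RefSeq gives Acot11 a pair of starts as well, and the bases before them are shown because it is the thioesterase that rose most, with capitals as above.
Acot11, start lying upstream (chr4:106805008-106805257, minus strand): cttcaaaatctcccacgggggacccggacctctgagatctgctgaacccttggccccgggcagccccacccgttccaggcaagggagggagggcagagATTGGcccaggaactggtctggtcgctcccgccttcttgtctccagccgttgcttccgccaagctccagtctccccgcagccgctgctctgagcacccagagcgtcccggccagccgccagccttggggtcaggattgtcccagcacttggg
Acot11, start lying downstream (chr4:106799832-106800081, minus strand): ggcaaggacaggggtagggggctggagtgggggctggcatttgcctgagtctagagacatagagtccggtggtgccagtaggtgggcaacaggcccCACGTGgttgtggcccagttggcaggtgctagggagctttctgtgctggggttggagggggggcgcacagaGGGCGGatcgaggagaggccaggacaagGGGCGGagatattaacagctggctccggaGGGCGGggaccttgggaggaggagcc
The stretch before the upstream start holds 1 CCAAT box. The stretch before the downstream start holds 3 GC boxes and 1 E-box, 154 bases before the start. An E-box is present in 6.02% of all promoters of this length, and in 1 of the 11 promoters listed for 9 of the 10 genes. The PPAR direct repeat, present in 0.0335% of all promoters, was in none of the 11.

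Acot2 and Acot1 are neighbouring, closely related genes on chromosome 12 whose products act in the mitochondrial matrix and in the cytosol. Acot2 read 6.81, 7.01 and 7.06 on the WT arrays and 7.80, 8.06 and 7.99 on the Zip13-KO arrays. The genotypes did not overlap, and their spread was alike. Acot2 rose by 1.98-fold (log2 fold change 0.99, SE 0.11, adjusted p = 0.00508). Its processed signal was low, 120 to 145 units on the WT arrays. With normexp correction the log2 fold change was 0.77, still past the threshold. Acot1 read 7.79, 6.67 and 7.63 on the WT arrays and 7.99, 8.44 and 8.23 on the Zip13-KO arrays. All Zip13-KO arrays were higher here too, but the lowest of them was close to WT replicate 1, and WT replicate 2 stood far below the other WT arrays. The log2 fold change was 0.86 (SE 0.31, adjusted p = 0.0741), which is over 1.5-fold and not called. Without WT replicate 2 it was 0.51 and was not called either. The changes of Acot2 and Acot1 differed by 0.13 (exact permutation p = 0.7, adjusted p = 0.7 over the 5 pairs), and by -0.16 without WT replicate 1.

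The stretches before the starts of Acot2 and Acot1 are printed because the genes lie side by side and share much of their coding sequence, while the letters in front of them differ.
Acot2 (chr12:83987611-83987860, plus strand): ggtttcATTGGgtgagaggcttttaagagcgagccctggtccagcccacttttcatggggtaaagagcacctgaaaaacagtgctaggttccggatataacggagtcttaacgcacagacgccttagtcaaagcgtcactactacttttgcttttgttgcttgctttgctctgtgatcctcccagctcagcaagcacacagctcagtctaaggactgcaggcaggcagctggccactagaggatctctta
Acot1 (chr12:84009252-84009501, plus strand): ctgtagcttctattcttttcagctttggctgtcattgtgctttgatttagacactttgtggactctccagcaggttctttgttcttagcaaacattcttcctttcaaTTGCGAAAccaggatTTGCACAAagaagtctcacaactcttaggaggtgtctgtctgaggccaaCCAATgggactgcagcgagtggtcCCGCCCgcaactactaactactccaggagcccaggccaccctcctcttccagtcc
Acot2 holds 1 CCAAT box, 244 bases before the start. Acot1 holds 1 GC box, 1 CCAAT box, 79 bases before the start, and 2 C/EBP cores, a motif found in 9.56% of all promoters. No match in the printed sequences overlapped a match to another motif.

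On GRCm38.p6 the protein-coding genes that follow Acot2 are, in order, Acot1, Acot4, Acot3, Acot5 and Acot6, all thioesterases of one type, with Riox1 before and Dnal1 after them. Of these 6 thioesterases 3 were called higher, Acot2 among them, against 10.3% of all genes tested. Acot4, a peroxisomal thioesterase, read 6.30, 6.11 and 6.74 on the WT arrays and 7.74, 7.90 and 7.93 on the Zip13-KO arrays, a log2 fold change of 1.47 (adjusted p = 0.00546). Acot5, also peroxisomal, had a log2 fold change of 1.14 (adjusted p = 0.00806) with no overlap between genotypes. Acot3 and Acot6 were not called, with log2 fold changes of -0.03 (adjusted p = 0.894) and 0.31 (adjusted p = 0.31) and overlapping arrays. Of the flanking genes, Riox1 had a log2 fold change of -0.37 (adjusted p = 0.0223), short of 1.5-fold, and Dnal1 one of -0.13 (adjusted p = 0.692). These paralogues are alike in sequence and the probe sequences were not used here, so how far a probe of one also binds transcripts of another is unknown, and values within the cluster are uncertain in that respect.

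Acot13, a mitochondrial thioesterase also called Them2, read 13.11, 13.05 and 13.39 on the WT arrays and 13.69, 13.81 and 13.74 on the Zip13-KO arrays. The genotypes did not overlap. The log2 fold change was 0.56 (95% interval 0.30 to 0.83, adjusted p = 0.0134), which passes the p threshold and falls just short of the 0.58 that a change of 1.5-fold requires. At an adjusted p under 0.05 and any size of change, 6 of the 10 genes were higher, Acot13 being the sixth, and none was lower, against 19.3% higher and 15.2% lower among all genes tested. Acot13 was called when the arrays were scaled to the 75th percentile (0.70), without WT replicate 3 (0.66) and without Zip13-KO replicate 1 (0.59). Inside each array its change was 2.12 log2 units short of that of Acot11 (difference -2.12, exact permutation p = 0.1, adjusted p = 0.167), with no overlap between genotypes.

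Acot7, a cytosolic thioesterase best known from neurons, read 11.08, 11.23 and 11.14 on the WT arrays and 11.08, 11.10 and 11.11 on the Zip13-KO arrays. The genotypes overlapped. Its log2 fold change was -0.05 (95% interval -0.23 to 0.12, adjusted p = 0.603), so that a change of 1.5-fold again lay outside the interval.

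**Figure D2:**
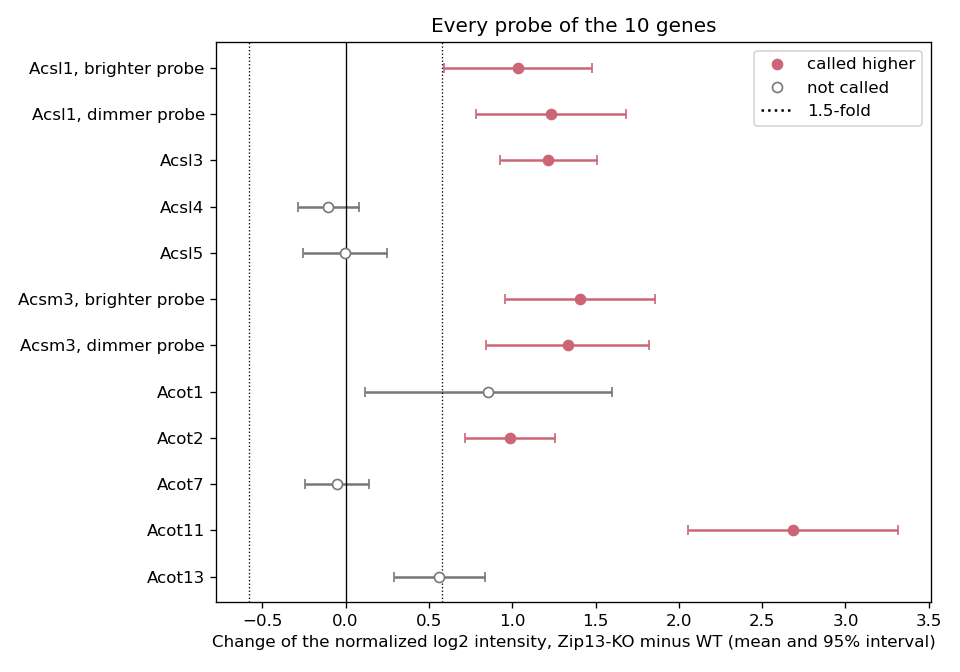
Change of the normalized log2 intensity (Zip13-KO minus WT, x axis) for each of the 12 probes, from the limma fit of every probe by itself, with its 95% interval (n = 3 a genotype). Filled points passed the threshold, open points did not, and dotted lines mark a change of 1.5-fold. Acot11 lies farthest to the right, and the intervals of Acsl4, Acsl5 and Acot7 include 0 and stay inside the dotted lines.

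The same 2 enzyme families hold 33 further listed genes, of which 22 had a probe above the filter and 11 (such as Acsl6, Acsm1 and Acot12) had none. Of the 22, 9 were higher past the threshold and none was lower, against 10.3% higher and 8.38% lower among all genes tested. The median log2 fold change was 0.45 over the 14 other synthetases and 0.30 over the 8 other thioesterases. The largest rise among them was that of Slc27a2, a fatty acid transport protein with very-long-chain synthetase activity, which read 6.88, 4.53 and 6.25 on the WT arrays and 9.65, 10.03 and 10.55 on the Zip13-KO arrays. The WT arrays were far apart and all below the Zip13-KO arrays, and Slc27a2 rose by 4.19 on the log2 scale (SE 0.61, adjusted p = 0.00746). Its relative Slc27a1, a fatty acid transport protein of muscle and fat, rose by 1.20 (adjusted p = 0.00442).

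Of the synthetases for short acids some were called and some were not. Acss2, which makes acetyl-CoA from acetate in the cytosol, had a log2 fold change of 1.63 (adjusted p = 0.0319), and Aacs, which activates acetoacetate, one of 1.24 (adjusted p = 0.0288). The mitochondrial acetyl-CoA synthetase Acss1 was at 0.01 (adjusted p = 0.958) with overlapping arrays, and Acss3 was higher on all Zip13-KO arrays but not called (0.51, adjusted p = 0.0208). Acsf3, which activates malonate in mitochondria, had a log2 fold change of 1.10 (adjusted p = 0.00766), and Acsm5, a relative of Acsm3, one of 0.89 (adjusted p = 0.0288). Among the thioesterases Acot4 and Acot5, given above, and the mitochondrial Them4 (0.61, adjusted p = 0.00722) rose. The lowest values were -0.55 for Acsbg3 among the synthetases and -0.03 for Acot3 among the thioesterases, and neither passed the test. In the Slc27 group Slc27a3 (-0.28), Slc27a4 (0.09) and Slc27a5 (0.39) were not called. At an unadjusted limma p under 0.05 and any size of change, 11 of the 22 genes were higher and 2 lower, where 25.3% and 21.8% of all genes were.

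Acyl-CoA made by the synthetases is used in several pathways, and these did not all move alike. For entry into mitochondria and oxidation there, 15 of 16 genes were higher and 1 lower, with a median of 1.15. Cpt1b, the carnitine palmitoyltransferase of muscle and brown fat, had a log2 fold change of 3.56 (adjusted p = 0.00441), and its counterpart Cpt1a was the gene called lower, at -0.71 (adjusted p = 0.0215). For entry into peroxisomes and oxidation there, 11 of 16 genes were higher and none lower, with a median of 0.92 and a highest value of 1.97 for Acox2, a branched-chain acyl-CoA oxidase. Esterification was divided, with 7 of 21 genes higher and 4 lower and a median of 0.50. Gpat3, a glycerol phosphate acyltransferase, was at the upper end (1.39, adjusted p = 0.0138). The genes called lower were Soat1, which esterifies cholesterol (-1.27, adjusted p = 0.00548), Agpat4 (-1.11), Lpin2 (-0.88) and the lysophospholipid acyltransferase Lpcat2 (-0.60). The lists were described by these counts, without a test of the list, beside 10.3% called higher and 8.38% lower among all genes tested.

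**Figure D3:**
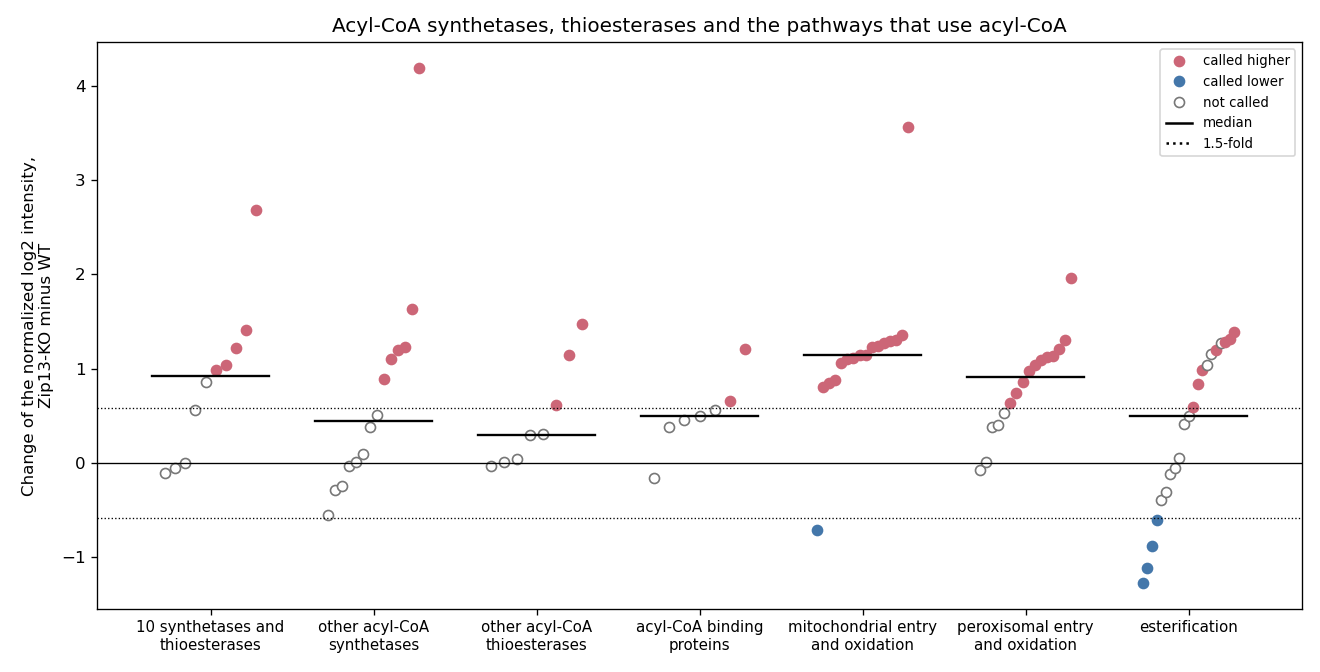
Change of the normalized log2 intensity (Zip13-KO minus WT, y axis) of each gene tested, by list, with genes in order of their change inside a list and the median as a bar. The medians are 0.92 for the 10 genes, 0.45 and 0.30 for the other synthetases and thioesterases, 0.50 for acyl-CoA binding proteins, 1.15 and 0.92 for mitochondrial and peroxisomal oxidation and 0.50 for esterification.

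Cell type markers moved between the genotypes alongside these genes. Their counts stand beside 10.3% called higher and 8.38% lower among all genes tested. All 8 thermogenic adipocyte markers were higher, with a median of 2.46 and values from 1.10 (Ppargc1a) to 5.16 (Ucp1). Their mean level relative to the WT mean was -0.38 to 0.22 on the WT arrays and 2.37 to 3.38 on the Zip13-KO arrays. Of the 10 macrophage markers 8 were lower, with a median of -1.23 and values from -2.57 (Fcgr1) to -0.17 (Itgam), and of the 10 stromal markers 3 were lower, with a median of -0.69. Of 10 adipocyte markers 3 were higher (Slc2a4 at 1.08, Plin1 and Lipe), with a median of 0.56 and 0.03 for Cfd. Of 8 endothelial markers 2 were higher (Cdh5 and Esam, median 0.37). No marker of lymphocytes (9 tested, median -0.39), skeletal muscle (9 tested, median 0.87) or mammary epithelium (6 tested, median 0.01) was called, although muscle markers were highest on Zip13-KO replicate 3.

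The 3 arrays of a genotype were also put in order by each gene, and by the means of the thermogenic and of the adipocyte markers. Acot11 and Acot13 had the order of the thermogenic markers in both genotypes, with WT replicate 2 and Zip13-KO replicate 1 the lowest. This order is not particular to the thermogenic markers, as the mean of the lymphocyte markers had it in both genotypes too. That mean was -0.096, -0.0998 and 0.196 on the WT arrays and -0.44, -0.32 and -0.36 on the Zip13-KO arrays. In all, 3 of the 10 genes had that order among the WT arrays (with Acsm3) and 5 among the Zip13-KO arrays (with Acot1, Acot2 and Acsl5). Of these genes, Acot13, Acot1 and Acsl5 were not called. Acsl1, Acsl3 and Acot7, which was not called, had the order of the adipocyte markers among the WT arrays, and 0 of the 10 genes had it among the Zip13-KO arrays. WT replicate 1 was lowest in that order, with a marker mean of -0.50 against 0.30 and 0.20 on the other WT arrays. Since 3 arrays have only 6 possible orders, these matches are a description and were not tested. The share of all genes tested with each order was not counted, so the counts cannot be read as a trait of these genes. The thermogenic markers did not all share the order of their mean, as Ucp1 was highest on WT replicate 1 among the WT arrays. Their means on WT replicates 1 and 3 were close (0.16 and 0.22).

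**Figure D4:**
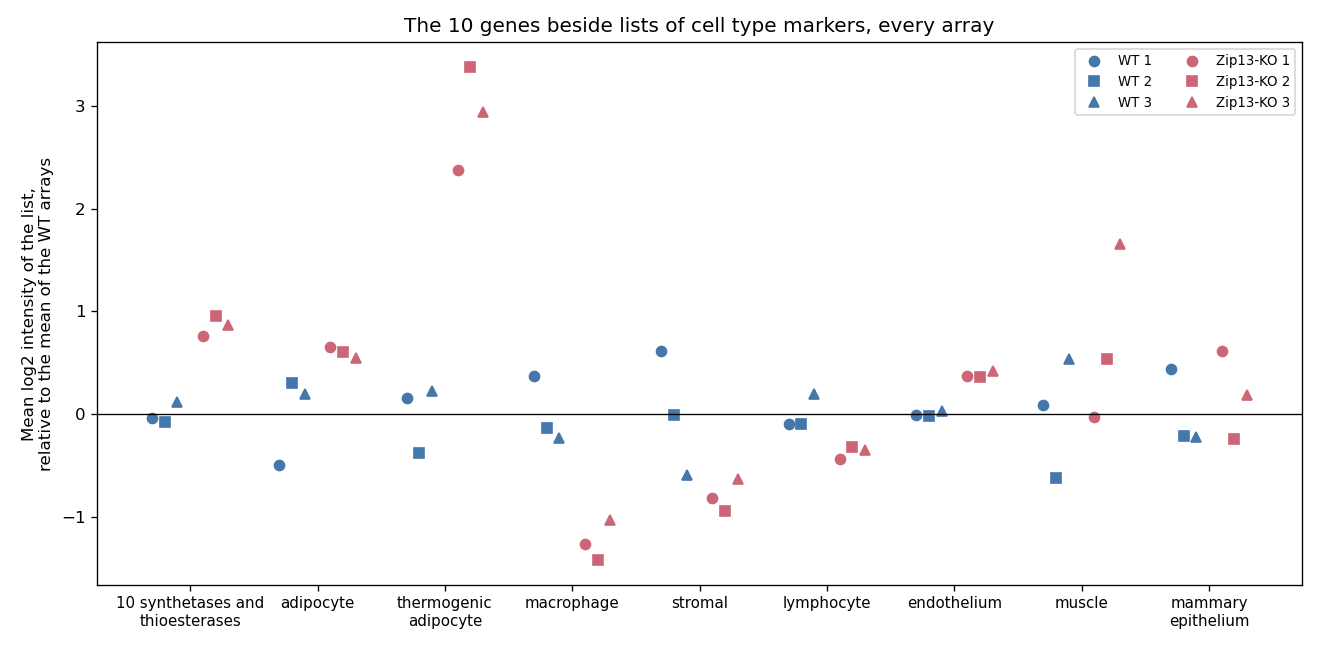
Mean log2 intensity of the 10 genes and of each list of cell type markers on every array (y axis, relative to the mean of the 3 WT arrays). The thermogenic markers stand at 2.37 to 3.38 and the macrophage markers at -1.42 to -1.03 on the Zip13-KO arrays, and WT replicate 1 is lowest for the adipocyte markers.

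The mean of the adipocyte markers was 0.55 to 0.65 on the Zip13-KO arrays, above every WT array. When each array was lowered by its own value of this mean, an alternative chosen after the data were seen, Acot11 was the only one of the 10 genes still called higher (log2 fold change 2.09, SE 0.32, adjusted p = 3.86e-05), and 1.07% of all genes were called higher and 32.6% lower. Acsm3 stood at 0.81 (adjusted p = 0.0511), Acsl3 at 0.62 (adjusted p = 0.0924), Acsl1 at 0.44 (adjusted p = 0.21) and Acot2 at 0.39 (adjusted p = 0.278). The value subtracted from an array was the same for all genes, so its spread entered every gene alike. The limma p values and counts of this fit are therefore not comparable with those of the main fit. For Acsl1, Acsl3 and Acsm3 all Zip13-KO arrays were still above all WT arrays, and for Acot2 the genotypes overlapped. The 10 markers include 3 genes called higher themselves, and the part of a higher adipocyte share in the rise of the synthetases and thioesterases was not tested.

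**Figure D5:**
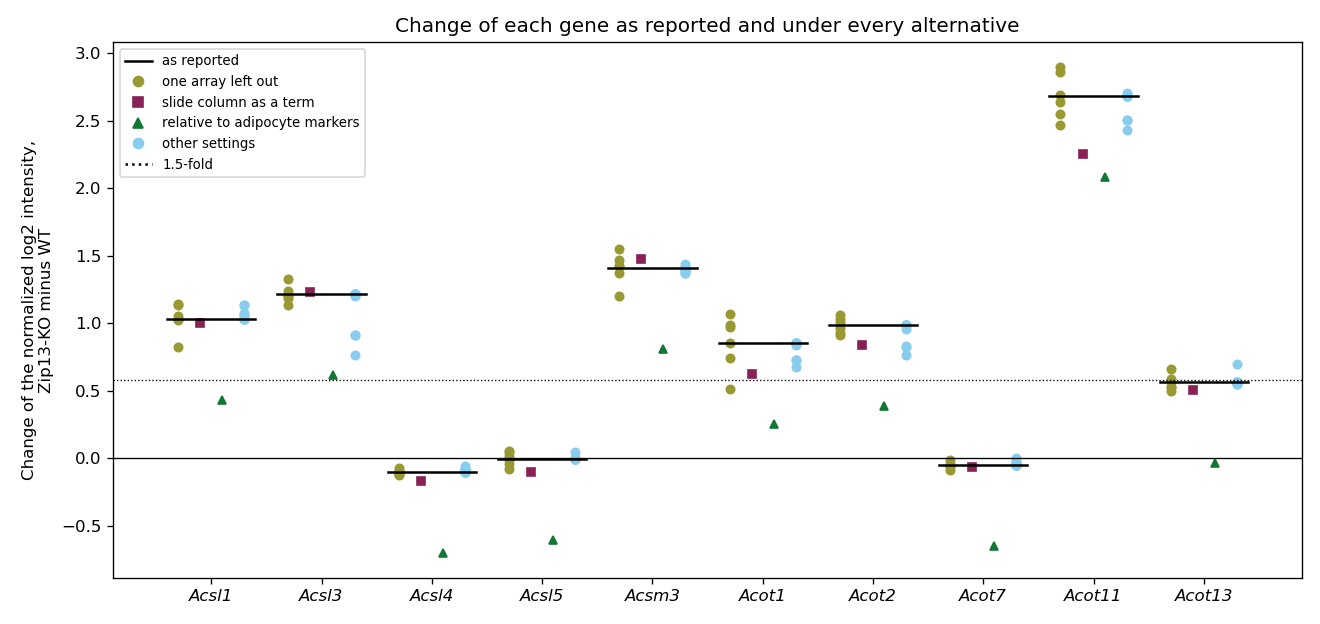
Change of each gene (Zip13-KO minus WT, log2 units, y axis) as reported (bar) and under 20 alternatives (points). The change of Acot11 stays between 2.09 and 2.90. The values relative to the adipocyte markers lie below the reported ones by the same amount for every gene, because the same values were subtracted from all. Those with the slide column as a term run from -0.17 for Acsl4 to 2.26 for Acot11.

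The 6 arrays shared 1 slide and 1 scan, and the WT arrays and Zip13-KO replicate 1 lay in column 1 and the other Zip13-KO arrays in column 2. With the column as a term, the comparison rested on Zip13-KO replicate 1 against the WT arrays. The log2 fold changes were then 1.0 for Acsl1, 1.23 for Acsl3, 1.48 for Acsm3, 0.84 for Acot2 and 2.26 for Acot11. None of these passed the threshold in that fit (adjusted p from 0.0578 to 0.0971), in which limma called 0 genes higher and 7 lower among all tested. At an unadjusted p under 0.05 that fit had 2724 genes higher and 2079 lower, and 6 of the 10 genes higher and 0 lower.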

How the data were processed

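Total RNA of iWAT from 3 WT and 3 Zip13-KO samples was hybridized in 1 colour to the Agilent SurePrint G3 mouse expression array. Per the file headers, the deposited scanner files hold spot intensities from Feature Extraction 11.5.1.1 (background-subtracted processed signal, median signal, local background) and flags. The authors also deposited a table of log2 values per probe, which served as an alternative. Of 62976 spots on each array 59305 were not controls. After outlier spots were removed, spots of a probe were averaged, giving 55681 probes, of which 28331 (50.9%) were named through a RefSeq accession without its version.

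Log2 processed signals were quantile normalized, as in the study's methods. Probes were kept when well above background on all 3 arrays of a genotype with no missing value (33038 probes, 20315 named, 13 left out for a missing value). The brightest kept probe stood for each of 15306 genes. Genotypes were compared with limma 3.58.1 (lmFit and eBayes, statmod 1.5.0, R 4.3.3) and Benjamini-Hochberg adjustment over all genes, at adjusted p under 0.05 and 0.58 on the log2 scale (1.5-fold). Pairs of genes were compared with two-sided exact permutation tests over arrays. The fit was tested on simulated data. From 58.8% to 63.2% of the probes were well above background on an array, none was saturated, arrays of a genotype correlated at 0.986 to 0.995, and the number of arrays limits the precision.

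All 10 genes and their probes, and from each other list the genes with the highest and lowest change, every called synthetase or thioesterase and the genes behind counts of 5 or fewer, were named, except 1 gene that is not reported here. The genes, lists and tests were chosen with earlier results of these data known. The design of the arrays was annotated on mm9, so RefSeq (GRCm38.p6) gave only names, neighbours and promoter sequences. No column of values was left unmapped. The 20 alternatives covered scaling, background correction, filter, probe choice, test, replicate block, slide column, each array left out and scaling to adipocyte markers. The plots were drawn with matplotlib.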

Additional observations from a re-analysis of the deposited data

How the results depend on the processing

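With 3 arrays a genotype, a difference had to be large against the spread to pass. Background correction set part of the size for dim signals, as for Acsl3 (1.22, and 0.77 with normexp) and Acot2 (0.99, and 0.77 with normexp). Of the 20 alternatives, 18 gave 5 or 6 of the 10 genes higher, and none gave any lower. With the slide column as a term, 0 of the 10 genes and 0 of the other synthetases and thioesterases were higher, and over all genes limma called 0 higher and 7 lower (2724 and 2079 at an unadjusted p under 0.05). Acsl1 (1.0), Acsl3 (1.23), Acsm3 (1.48), Acot2 (0.84) and Acot11 (2.26) were then no longer called. The alternative lowered by the adipocyte markers, chosen after the data were seen, gave 1 of the 10 genes higher, 3 other synthetases or thioesterases higher and 3 lower, and 164 genes higher and 4997 lower in all. Its counts are not comparable with those of the main fit, because all genes shared the subtracted values. Acsl1 (0.44), Acsl3 (0.62), Acsm3 (0.81) and Acot2 (0.39) were not called in this alternative, and Acot13 was at -0.037. Scaling to the 75th percentile gave 0.048 for Acsl5, 0.0029 for Acot7 and 0.70 for Acot13, which was then called, and moved the median of all genes by less than 0.1. The difference of Acsl3 and Acsl1 was -0.29 with normexp, -0.15 without background correction and -0.16 in the deposited value table. The methods' t-test after Benjamini-Hochberg adjustment gave 1007 genes higher and 721 lower. The cause of these shifts was not tested.

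Leaving out 1 array gave 5 to 6 of the 10 genes higher, 5 to 9 other synthetases and thioesterases higher, and 961 to 1672 genes higher and 782 to 1455 lower in all. The lowest of these counts came without Zip13-KO replicate 1 (961 and 782, and 5 of the families). Without Zip13-KO replicate 2 there were 1027 higher and 791 lower. Acsl5 ranged from -0.080 to 0.054, Acot13 from 0.50 to 0.66, and the difference of Acot2 and Acot1 from -0.16 to 0.50, turning sign without WT replicate 1. Deviations of same-numbered arrays correlated at -0.02, 0.04 and -0.08, and those of differently numbered arrays at -0.17 to 0.18. With so few arrays these values cannot show whether the replicate numbers pair the samples. With the replicate number as a block, 5 of the 10 genes, 8 of the other synthetases and thioesterases and 1278 genes in all were higher, and no call among the 10 genes changed.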

Other observations

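Proteins that bind acyl-CoA, and receptors that fatty acids activate, were also measured. For both groups the share among all genes tested was 10.3% called higher and 8.38% lower. Of 7 acyl-CoA binding proteins tested, 2 were higher and none lower, with a median log2 fold change of 0.50. These were Acbd4 (1.21, SE 0.18, adjusted p = 0.00822 from limma) and Acbd5 (0.66, SE 0.08, adjusted p = 0.00584), which link peroxisomes to the endoplasmic reticulum. Dbi, the general acyl-CoA binding protein, was higher on all Zip13-KO arrays but not called (0.46, adjusted p = 0.0774), and Acbd3 had the lowest value (-0.16, adjusted p = 0.184).

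Of 8 genes for PPAR receptors and their partners, 4 were higher and none lower, with a median of 0.82. Ppara, the receptor that governs fatty acid oxidation genes, read 8.99, 9.56 and 10.16 on the WT arrays and 11.57, 11.98 and 11.25 on the Zip13-KO arrays, with a log2 fold change of 2.03 (adjusted p = 0.00913). The genotypes did not overlap. Pparg (1.13, adjusted p = 0.0141) and the coactivators Ppargc1a (1.10, adjusted p = 0.00695) and Ppargc1b (1.19, adjusted p = 0.0137) were higher too, and Ppard was at -0.03 (adjusted p = 0.739). Whether the synthetases and thioesterases rose through these receptors was not tested.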
